A study of Mus musculus with 6 samples.

Results

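The interferon-induced GTPases of the Gbp and Irg families were followed in RNA-seq of mouse T cells that had been cocultured with control or DB2313-treated cells. DB2313 is an inhibitor of the transcription factor Spi1, also called PU.1. The genes were chosen by symbol, and all 10 of them (Gbp2, Gbp3, Gbp5, Gbp6, Gbp7, Irgm1, Irgm2, Igtp, Iigp1 and Tgtp1) were found among the 54532 genes of the deposited count table. Each of the 10 genes passed the filter on low counts in edgeR. Per the labels, the control group comprised primary T cells incubated with DC cells, and the DB2313 group comprised primary T cells incubated with DC cells that had received DB2313, with 3 libraries in each. The treatment text of the labels is the same for all 6 libraries, so the groups were taken from the description and the treatment characteristic of each sample. The paper describes spleen-derived CD8T cells, activated with anti-CD3/CD28 beads in both groups, and names peritoneal macrophages activated with IFN-γ, not DC cells, as the partner cells. Mouse strain, age and genotype are not given in the sources used here. Neither source states whether the 3 libraries of a group came from separate cultures, so p-values measure the spread between these libraries, which may be technical.

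Both families are classical targets of IFN-γ. The cytokine binds the Ifngr1/Ifngr2 receptor, the kinases Jak1 and Jak2 are activated, and the signal reaches promoters at gamma-activated sites (GAS) and at interferon-stimulated response elements (ISRE), the latter bound by interferon regulatory factors. Guanylate-binding proteins (Gbp) and immunity-related GTPases (Irg) are loaded onto the vacuoles of intracellular pathogens, such as Toxoplasma, and help to destroy them. Within the Irg family, Irgm1, Irgm2 and Igtp (Irgm3) reside on membranes of the host cell and keep effector GTPases such as Iigp1 (Irga6) and Tgtp1 (Irgb6) inactive there.

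The promoters were examined first, because ISRE and GAS letters are the shared feature through which these genes are known to respond. RefSeq promoter sequences (GRCm38.p6, 250 bases before to 50 bases after each transcription start) matched 8 of the 10 genes with 9 promoters, since Gbp3 has a second start. Promoters of Gbp6 and Iigp1 were not examined, and whether they hold ISRE or GAS letters was not tested. Letters GAAANNGAAA were searched as ISRE, TTCNNNGAA as GAS and GAGGAA as the core of the PU.1 motif, all on both strands. GAS letters are the same on both strands, and ISRE matches may overlap each other. An ISRE match was present in 8 of the 9 promoters (88.9%), against 3.44% of all 32851 promoters of the table. A GAS match was present in 5 of 9 (55.6%), against 8.3% of all promoters, and these 5 promoters held both motifs, against 0.454% of all promoters. The PU.1 core was present in 5 of 9 (55.6%), against 28.3% of all promoters, 12.5% of those of the other GTPase family genes (1 of 8), 60% of those of the T cell markers (9 of 15) and 71.4% of those of the macrophage markers (10 of 14). A match is a description of letters and no evidence of binding, and the absence of a match says only that the letters are not in the window.

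The windows around the ISRE are shown for the 4 Gbp genes, with Gbp2b for comparison, because 3 of these members were lower in the DB2313 group. Each sequence is written 5′ to 3′ along the gene, and capitals mark ISRE letters, which appear here as their reverse complement because every match lies on the opposite strand. All 5 windows lie on the plus strand of chromosome 3, at chr3:142620579-142620638 for Gbp2, chr3:142559974-142560039 for Gbp3, chr3:142496744-142496803 for Gbp5, chr3:142530258-142530317 for Gbp7 and chr3:142594685-142594744 for Gbp2b.
Gbp2: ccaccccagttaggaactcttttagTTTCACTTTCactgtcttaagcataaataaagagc
Gbp3: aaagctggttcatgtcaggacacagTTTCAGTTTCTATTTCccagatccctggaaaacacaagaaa
Gbp5: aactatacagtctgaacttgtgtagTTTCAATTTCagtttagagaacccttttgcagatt
Gbp7: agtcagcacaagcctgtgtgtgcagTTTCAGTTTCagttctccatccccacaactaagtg
Gbp2b: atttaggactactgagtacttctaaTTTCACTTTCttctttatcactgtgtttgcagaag
The ISRE of Gbp2 began 59 bases before the transcription start, that of Gbp7 53 bases and that of Gbp5 165 bases before it. In Gbp3, overlapping matches began 45 and 39 bases before the start. GAS matches lay outside the printed windows, 245 and 52 bases before the start of Gbp5 and 106 and 87 bases before that of Gbp7.

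The windows of the 4 matched Irg genes, with Tgtp2 for comparison, are shown because these genes were higher in the DB2313 group and most of them share a composite arrangement of both motifs. Capitals mark ISRE and GAS letters. The windows of Igtp (chr11:58199497-58199556) and Irgm2 (chr11:58214888-58214947) lie on the plus strand, and those of Tgtp1 (chr11:48992289-48992348), Tgtp2 (chr11:49064248-49064307) and Irgm1 (chr11:48871410-48871475) on the minus strand.
Igtp: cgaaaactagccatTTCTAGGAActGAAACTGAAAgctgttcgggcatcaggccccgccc
Irgm2: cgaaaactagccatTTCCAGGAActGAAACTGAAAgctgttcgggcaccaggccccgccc
Tgtp1: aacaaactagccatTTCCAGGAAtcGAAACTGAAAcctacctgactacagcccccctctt
Tgtp2: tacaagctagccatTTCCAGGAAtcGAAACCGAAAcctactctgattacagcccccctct
Irgm1: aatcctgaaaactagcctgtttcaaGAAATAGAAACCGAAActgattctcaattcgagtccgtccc
In Igtp, Irgm2, Tgtp1 and Tgtp2 the GAS was followed by the ISRE after 2 bases, in the same order and orientation. The Igtp and Irgm2 windows were 96.7% identical, against 73.7% over their whole promoters, and the Tgtp1 and Tgtp2 windows were 90.2% identical, against 69.3% over their whole promoters. Irgm1 carried overlapping ISRE matches 30 and 24 bases before its start and no GAS letters in its promoter.

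**Figure D1:**
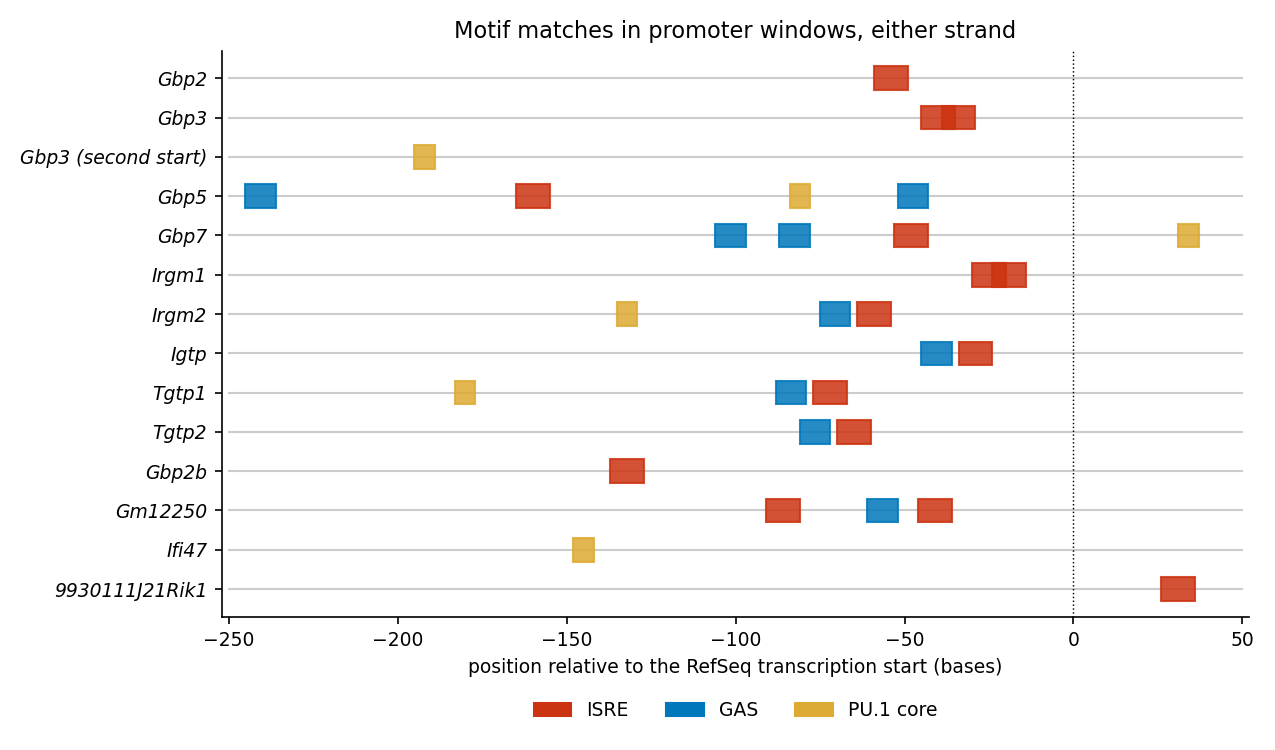
Positions of ISRE (red), GAS (blue) and PU.1 core (yellow) matches on either strand, in bases relative to the RefSeq transcription start (0), in the promoters of the matched members and of the other family genes with a match. The GAS and the ISRE are neighbours in Irgm2, Igtp, Tgtp1 and Tgtp2, separated by 2 bases, and are 6 bases apart in Gm12250. The GAS matches of Gbp5 and Gbp7 lie 25 or more bases from the ISRE.

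Library totals ranged from 16611975 to 18596217 counts, and a gene at 0 could still have had 3 counts, which is 1.81e-05% of the smallest total and covers counting error only. The common biological coefficient of variation was 4.67%. T cell and macrophage genes were both present in every library. For the marker counts that follow, the shares over all tested genes were 20.8% higher and 24.6% lower (edgeR, adjusted p under 0.05). The summed counts of 20 T cell markers took 0.346% to 0.352% of all counts in control libraries and 0.561% to 0.565% in DB2313 libraries, and all 20 were higher in the latter. The summed counts of 20 macrophage markers took 1.63% to 1.66% and 0.743% to 0.758%, with 18 lower and 1 higher. Among 10 dendritic cell markers, 7 were lower and 1 was higher, with a sum of 0.164% to 0.167% and 0.148% to 0.153%, and 1 was at 0 in all libraries. No T cell or macrophage marker was at 0 in all libraries. The part of these shifts in the results that follow was not tested. In bulk libraries, fewer cells of a type and less RNA per cell cannot be told apart, and no library of either cell type cultured alone was analysed here.

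Of the 10 GTPase genes, 5 were higher in the DB2313 group (Gbp6, Irgm1, Irgm2, Igtp and Tgtp1), 3 were lower (Gbp2, Gbp3 and Gbp5), and Gbp7 and Iigp1 did not pass the test (edgeR quasi-likelihood test, Benjamini-Hochberg adjusted p under 0.05). Among all 14883 tested genes, 20.8% were higher and 24.6% were lower. None of the 10 genes passed an absolute log2 fold change of 1, which 1.37% of all tested genes did upward and 5.3% downward. In 8 of the 10 genes control and DB2313 libraries did not overlap, with DB2313 above control in 5 and below it in 3, whereas 53.1% of all tested genes had groups without overlap. The median log2 fold change was 0.12 over the 10 genes and 0.019 over all tested genes.

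These directions hold for libraries scaled by TMM, a method that takes most genes as unchanged. When libraries were scaled to the T cell markers, the median of all tested genes moved to -0.58, and Tgtp1 was then the only one of the 10 genes called higher, with 8 called lower. When they were scaled to the macrophage markers, that median moved to 1.24 and all 10 genes were called higher. Scaling to library size moved it to 0.11, with 5 genes higher and 2 lower. Each change below is therefore a change relative to the other RNA of the coculture. The shares of all tested genes in this report hold for TMM scaling only. Counts under the marker scalings have no such share beside them, and most genes moved in the same direction there.

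**Figure D2:**
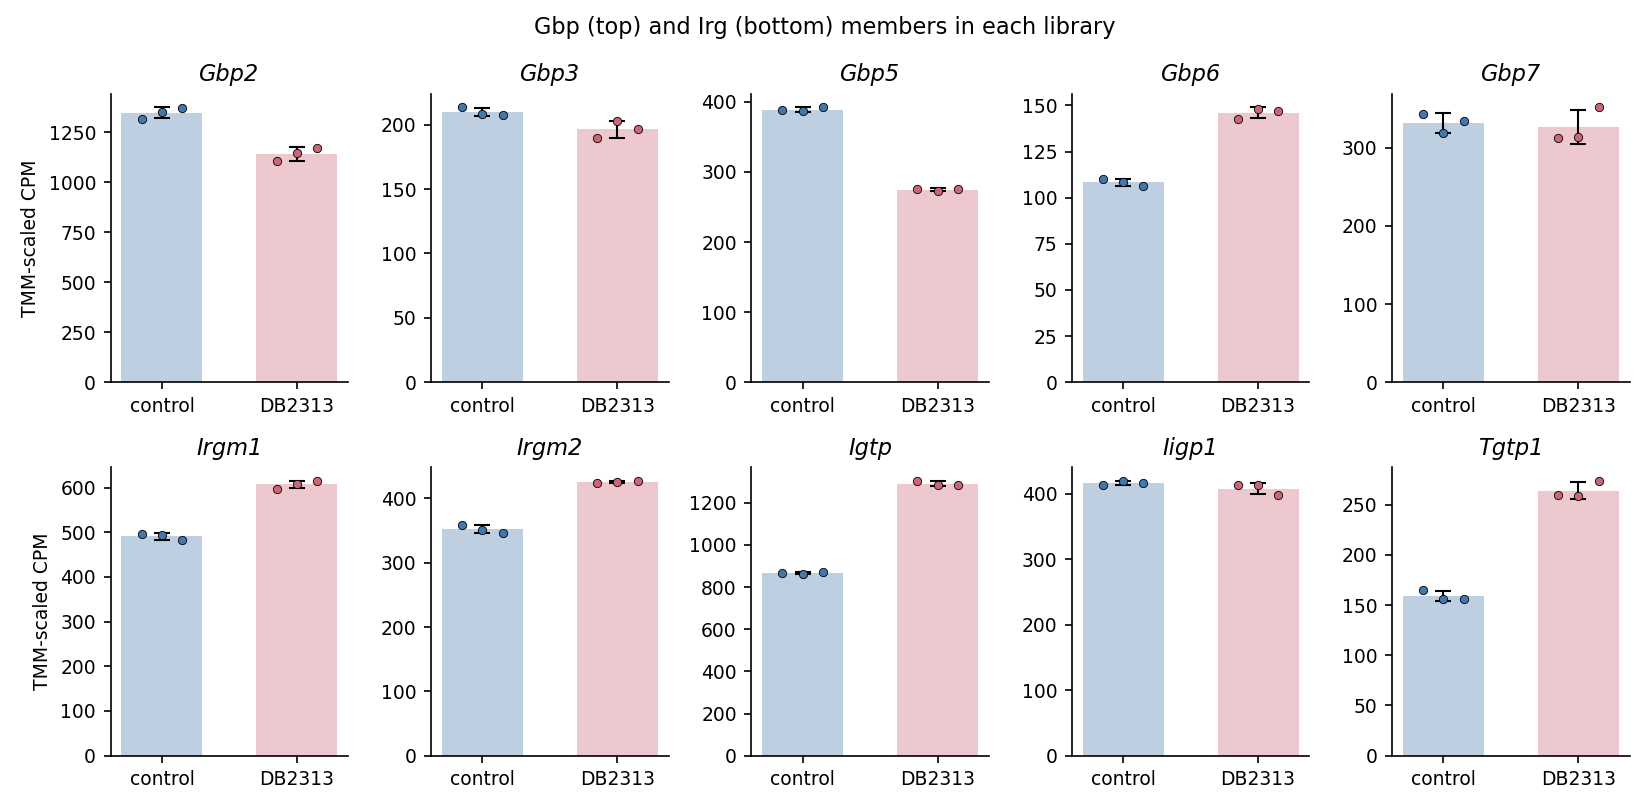
TMM-scaled CPM (counts relative to library size) of the 5 Gbp and 5 Irg genes, with each axis starting at 0. Points are libraries, bars are means and whiskers are SD (n = 3 per group). Gbp6, Irgm1, Irgm2, Igtp and Tgtp1 lie higher and Gbp2, Gbp3 and Gbp5 lower in every DB2313 library, and Gbp7 and Iigp1 overlap. Under T cell marker scaling, of these 5 higher genes only Tgtp1 stays higher, and with scaling to the macrophage markers Gbp2, Gbp3 and Gbp5 turn higher.

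The Irg regulators were examined first. Igtp, which sits on the endoplasmic reticulum and on lipid droplets, had TMM-scaled levels of 869, 863 and 873 CPM in the control libraries and 1305, 1284 and 1286 CPM in the DB2313 libraries. All DB2313 libraries lay well above all control libraries. Igtp rose by 0.57 on the log2 scale (standard error 0.029, adjusted p = 6.84e-14, edgeR), from 868 ± 5.39 to 1291 ± 11.5 CPM (SD, n = 3 each), which turned to -0.024 (adjusted p = 0.473, edgeR) with scaling to the T cell markers. Irgm1, which is required for resistance to several intracellular bacteria and takes part in autophagy, was at 496, 494 and 482 CPM in control libraries and 598, 609 and 614 CPM in DB2313 libraries. Its groups did not overlap either, with a log2 fold change of 0.31 (standard error 0.031, adjusted p = 2.08e-08, edgeR), or -0.29 with scaling to the T cell markers. Irgm2, known to restrain the noncanonical inflammasome, had 358, 351 and 347 CPM in control libraries and 424, 425 and 427 CPM in DB2313 libraries. The DB2313 libraries of Irgm2 differed among themselves by less than the control libraries did, and all lay above them. Irgm2 rose by 0.27 on the log2 scale (standard error 0.032, adjusted p = 1.86e-07, edgeR), or -0.32 with scaling to the T cell markers.

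Igtp (ENSMUSG00000078853, chr11:58199556-58207591) and Irgm2 (ENSMUSG00000069874, chr11:58199618-58222782) overlap on the plus strand over 7974 bases in the deposited coordinates. Of the 75-base windows in the Igtp transcripts, 7.8% were also found in transcripts of Irgm2. With the counts of both genes summed, the log2 fold change was 0.49 (adjusted p = 6.38e-13, edgeR). Irgm1 (ENSMUSG00000046879, chr11:48861968-48871683, minus strand) shared no such window with another gene.

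The effector Irg genes did not move together. Tgtp1, first described as a T cell GTPase, was at 165, 156 and 156 CPM in control libraries and 259.9, 258 and 274 CPM in DB2313 libraries. No control library reached the lowest DB2313 library. At a log2 fold change of 0.73 (standard error 0.037, adjusted p = 7.55e-14, edgeR), Tgtp1 rose the most of the 10 genes, and it was also higher with scaling to the T cell markers, where the log2 fold change was 0.14 (adjusted p = 0.00196, edgeR). Iigp1 (ENSMUSG00000054072, chromosome 18), which coats the Toxoplasma vacuole, was at 413, 420.1 and 416 CPM in control libraries and 413, 413 and 398 CPM in DB2313 libraries. The groups overlapped, and the log2 fold change of -0.030 had a 95% interval from -0.097 to 0.038 (adjusted p = 0.486, edgeR), with the sign turning to 0.065 with library size scaling, 0.034 with upper quartile scaling and 1.19 with scaling to the macrophage markers.

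Reads of Tgtp1 are hard to tell from those of its near copy. Tgtp1 (ENSMUSG00000078922, chr11:48985327-48994172, minus strand) shared 77.2% of its 75-base windows with other genes, 74.6% with Tgtp2 (chr11:49057194-49064206, minus strand), and also overlaps Gm12185 and Olfr56. Read length and the treatment of reads with several matches are not given in the sources used here, so the division between the copies is uncertain. Tgtp2 itself rose from 247 ± 2.81 to 292 ± 11.5 CPM (SD, n = 3 each, log2 fold change 0.24, adjusted p = 5.38e-06, edgeR). Tgtp1 took 39.7%, 38.9% and 38.7% of the summed counts of both genes in the control libraries and 46.0%, 47.6% and 48.8% in the DB2313 libraries, a share that no scaling of libraries alters. With their counts summed, the log2 fold change was 0.45 (adjusted p = 4.24e-11, edgeR).

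The Gbp genes moved in both directions. Gbp5 (ENSMUSG00000105504, chr3:142493978-142522344), Gbp7 (ENSMUSG00000040253, chr3:142530342-142550149), Gbp3 (ENSMUSG00000028268, chr3:142560026-142573209) and Gbp2 (ENSMUSG00000028270, chr3:142620602-142638008) lie in this order on the plus strand of chromosome 3. Gbp5, which promotes inflammasome activation, had 388, 387 and 392 CPM in control libraries and 276, 272 and 276 CPM in DB2313 libraries. The groups lay far apart against a spread of a few CPM within each. Gbp5 fell by 0.50 on the log2 scale (standard error 0.032, adjusted p = 5.57e-12, edgeR), from 389 ± 2.92 to 275 ± 2.11 CPM (SD, n = 3 each), and its log2 fold change was 0.72 with scaling to the macrophage markers. Gbp2, which accumulates on the Toxoplasma vacuole, was at 1317, 1352 and 1371 CPM in control libraries and 1103, 1147 and 1171 CPM in DB2313 libraries. All DB2313 libraries were below all control libraries. Gbp2 fell by 0.24 on the log2 scale (standard error 0.031, adjusted p = 8.57e-07, edgeR), or changed by 0.98 with scaling to the macrophage markers.

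Gbp3, which lies between Gbp7 and Gbp2b in the chromosome 3 cluster, was at 214, 209 and 208 CPM in control libraries and 189.8, 203 and 197 CPM in DB2313 libraries. The groups did not overlap, but the gap between the lowest control and the highest DB2313 library was small. Gbp3 passed the test at a log2 fold change of -0.096 (standard error 0.036, adjusted p = 0.0344, edgeR). This call was lost with DESeq2 (adjusted p = 0.0683), without the filter on low counts (adjusted p = 0.0555, edgeR), with a replicate block (adjusted p = 0.0758, edgeR) and in the edgeR fits without control replicate 1, control replicate 2, DB2313 replicate 1 or DB2313 replicate 3, where adjusted p ranged from 0.0570 to 0.159. With library size scaling the log2 fold change was -0.0012 (adjusted p = 0.981, edgeR), with upper quartile scaling -0.032 (adjusted p = 0.494, edgeR) and with scaling to the macrophage markers 1.12.

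Gbp7, which has been linked to autophagy and to assembly of the phagocyte oxidase, was at 344, 318 and 334 CPM in control libraries and 313, 314 and 352 CPM in DB2313 libraries. DB2313 replicate 3 was the highest of all 6 libraries, whereas the other DB2313 libraries were the lowest. The log2 fold change was -0.025, with a 95% interval from -0.11 to 0.062 (adjusted p = 0.666, edgeR), and its sign depended on scaling and on single libraries, ranging from -0.081 to 0.0052 when 1 library was left out.

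Gbp6, which lies in the chromosome 5 cluster, was the only one of the 5 Gbp genes called higher. It had 110.0, 109 and 106 CPM in control libraries and 143, 148 and 147 CPM in DB2313 libraries. The groups were separated by more than the range within either. Gbp6 rose by 0.43 on the log2 scale (standard error 0.038, adjusted p = 1.78e-09, edgeR), or -0.17 with scaling to the T cell markers. Gbp6 (ENSMUSG00000104713, chr5:105270702-105293698, minus strand) shared 67.3% of its 75-base windows with other genes, 61.7% with the readthrough gene Gm43302 and 40.4% with Gbp10. With the counts of Gbp6 and Gbp10 summed, the log2 fold change was 0.60 (adjusted p = 2.03e-12, edgeR).

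Levels were compared between genes per kilobase of the length in the deposited table. In the control group, Gbp2 was the most abundant at 535 ± 10.8 CPM per kilobase (SD, n = 3), followed by Igtp at 429 ± 2.67. Far below them came Iigp1 (133 ± 1.08), Irgm2 (95.4 ± 1.61), Irgm1 (84.5 ± 1.30), Gbp3 (64.3 ± 0.987), Gbp7 (59.1 ± 2.27), Gbp5 (58.6 ± 0.440), Tgtp1 (49.6 ± 1.57) and Gbp6 (18.2 ± 0.309), all in CPM per kilobase. Gbp7 and Gbp5 were neighbours that did not differ beyond their spread. In the DB2313 group the order of the first 2 was turned, with Igtp at 639 ± 5.69 and Gbp2 at 453 ± 13.7 CPM per kilobase (SD, n = 3). Tgtp1, at 82.4 ± 2.67 CPM per kilobase, stood above Gbp3 (60.2 ± 2.01) and Gbp7 (58.1 ± 3.93), which did not differ beyond their spread, and above Gbp5 (41.4 ± 0.318). The ranks of Tgtp1 and Gbp6 are uncertain, since they shared 77.2% and 67.3% of their 75-base windows with other genes.

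The summed levels of the families are given with TMM scaling and no test. The 5 Gbp genes summed to 735 ± 8.89 CPM per kilobase in control libraries and 638 ± 18.6 in DB2313 libraries (SD, n = 3 each), and the 5 Irg genes to 792 ± 3.25 and 1072 ± 4.28. The ratio of the Irg sum to the Gbp sum, which does not depend on how libraries are scaled, was 1.09, 1.08 and 1.06 in the control libraries and 1.74, 1.67 and 1.64 in the DB2313 libraries. Every DB2313 library had a higher ratio than every control library. The sums weigh the most abundant genes most, Igtp (429 and 639 CPM per kilobase in control and DB2313 libraries) and Gbp2 (535 and 453). They do not describe every gene of a family, since Gbp6 was higher and Gbp7 and Iigp1 were not called. Together the 10 genes took 0.450% to 0.454% of all counts in control libraries and 0.518% to 0.534% in DB2313 libraries.

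**Figure D3:**
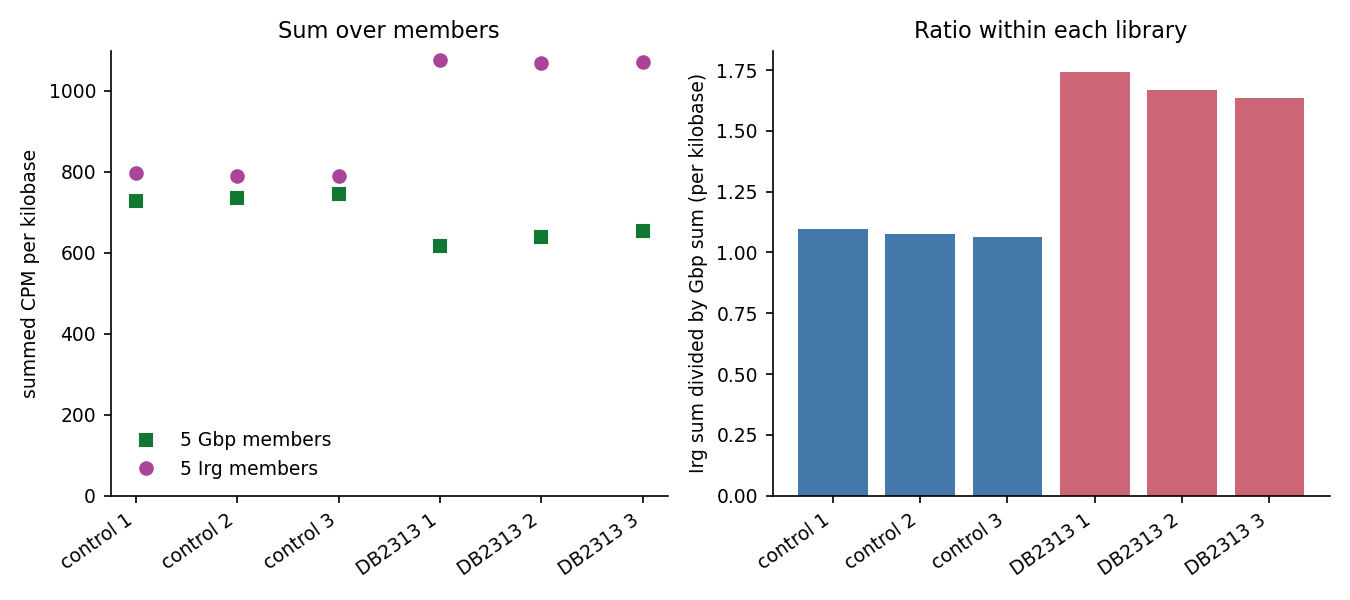
Left, summed TMM-scaled CPM per kilobase of the 5 Gbp genes (squares) and the 5 Irg genes (circles) in each library. Right, the ratio of the Irg sum to the Gbp sum within each library, which no scaling of libraries alters, at 1.06 to 1.09 in control libraries and 1.64 to 1.74 in DB2313 libraries. The directions of the sums themselves depend on the scaling.

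The other GTPase genes of these families and their relatives were examined next. Of 21 tested genes, 8 were higher and 6 were lower, against 20.8% higher and 24.6% lower among all tested genes. Their median log2 fold change was 0.053, against 0.019 over all tested genes. With scaling to the T cell markers 1 was higher and 19 were lower, with the median of all tested genes at -0.58. With scaling to the macrophage markers 19 were higher and 1 was lower, with that median at 1.24. By far the largest change was in Gbp2b, the mouse gene also known as Gbp1. Its level was 180.1, 185 and 181 CPM in the control libraries and 11.4, 13.5 and 12.01 CPM in the DB2313 libraries. The groups differed by more than an order of magnitude, with a log2 fold change of -3.89 (standard error 0.056, adjusted p = 1.70e-23, edgeR) that stayed negative, at -2.67, with scaling to the macrophage markers. Gbp2b (ENSMUSG00000040264, chr3:142594847-142619179, plus strand) lies next to Gbp2, shared 0.873% of its 75-base windows with it, and carried an ISRE match 137 bases before its start. The ratio of Gbp2b counts to Gbp2 counts, which no scaling alters, was 0.135 ± 0.00251 in control libraries and 0.0108 ± 0.000836 in DB2313 libraries (SD, n = 3 each).

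When the tested Gbp genes were grouped by chromosome, a grouping chosen after the values were seen, the called genes of the clusters had opposite directions with TMM scaling, a difference that was not tested. Among all tested genes, 24.6% were lower and 20.8% were higher. On chromosome 3, 4 of 5 genes were lower (Gbp2b, Gbp2, Gbp3 and Gbp5), none was higher and Gbp7 was not called. Gbp3 lost its call with DESeq2, library size or upper quartile scaling, no filter or a replicate block, which left 3 of 5 lower. On chromosome 5, 4 of 6 genes were higher, none was lower, and Gbp8 and Gbp11 were not called. The higher genes were Gbp10, with a log2 fold change of 0.86, Gbp6 with 0.43, Gbp9 with 0.41 and Gbp4 with 0.25. Scaled to the T cell markers, all 5 genes on chromosome 3 and 5 of 6 on chromosome 5 were lower, and with scaling to the macrophage markers all genes but Gbp2b were higher. The median of all tested genes was -0.58 and 1.24 in these fits. The ratio of the summed CPM per kilobase of the chromosome 5 genes to that of the chromosome 3 genes, which no scaling alters, was 0.358, 0.346 and 0.331 in the control libraries and 0.530, 0.510 and 0.522 in the DB2313 libraries. This ratio does not describe every gene of a cluster. The chromosome 3 sum went from 782 to 617 CPM per kilobase with TMM scaling. Within it, Gbp2 went from 535 to 453, Gbp2b from 64.5 to 4.36 and Gbp5 from 58.6 to 41.4. Gbp3 (64.3 to 60.2) and Gbp7 (59.1 to 58.1) moved less. Gbp4, Gbp8 and Gbp9 overlap on the same strand, so the division of counts among them is uncertain. Gbp6 and Gbp10 are counted as separate genes here, although Gbp10 shared 77.8% of its 75-base windows with other genes, 65.6% with Gbp6.

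Among the Irg genes grouped in the same way, 8 of 10 on chromosome 11 were higher, 1 was lower and 1 was not called. None of 4 on chromosome 18 was higher and 2 were lower. The shares over all tested genes were 20.8% higher and 24.6% lower. On chromosome 11, Irgm1, Irgm2, Igtp, Tgtp1, Tgtp2, Ifi47 (Irgd, log2 fold change 0.44), Gm12250 (Irgb10, log2 fold change 0.28) and 9930111J21Rik2 (log2 fold change 0.30) were higher and Gm5431 was lower (log2 fold change -0.59). On chromosome 18, Gm4951 (log2 fold change -0.71) and F830016B08Rik (log2 fold change -0.83) were lower, and Iigp1 and Gm4841 were not called. Under T cell marker scaling, 8 of the 10 genes on chromosome 11 and all 4 on chromosome 18 were lower, and with scaling to the macrophage markers all 14 were higher. All tested genes had medians of -0.58 and 1.24 under these scalings. These counts also treat near copies as separate genes, since Tgtp2 shared 81.4% of its 75-base windows with Tgtp1, and 9930111J21Rik2 and 9930111J21Rik1 shared 52.1% and 76% of theirs with other genes. Of the related GTPases, Mx2 had a log2 fold change of 0.61 and Mx1, an antiviral dynamin-like protein, one of -0.81. Irgc1, a testis-expressed relative with 2.29 ± 0.229 and 1.25 ± 0.437 CPM (SD, n = 3 each), was lower at a log2 fold change of -0.86, a call lost with DESeq2 (adjusted p = 0.0777), and Irgq, 9930111J21Rik1, Gvin1 and Gm4070 were not called, the last pair sharing 98.3% and 96.7% of their windows with other genes.

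**Figure D4:**
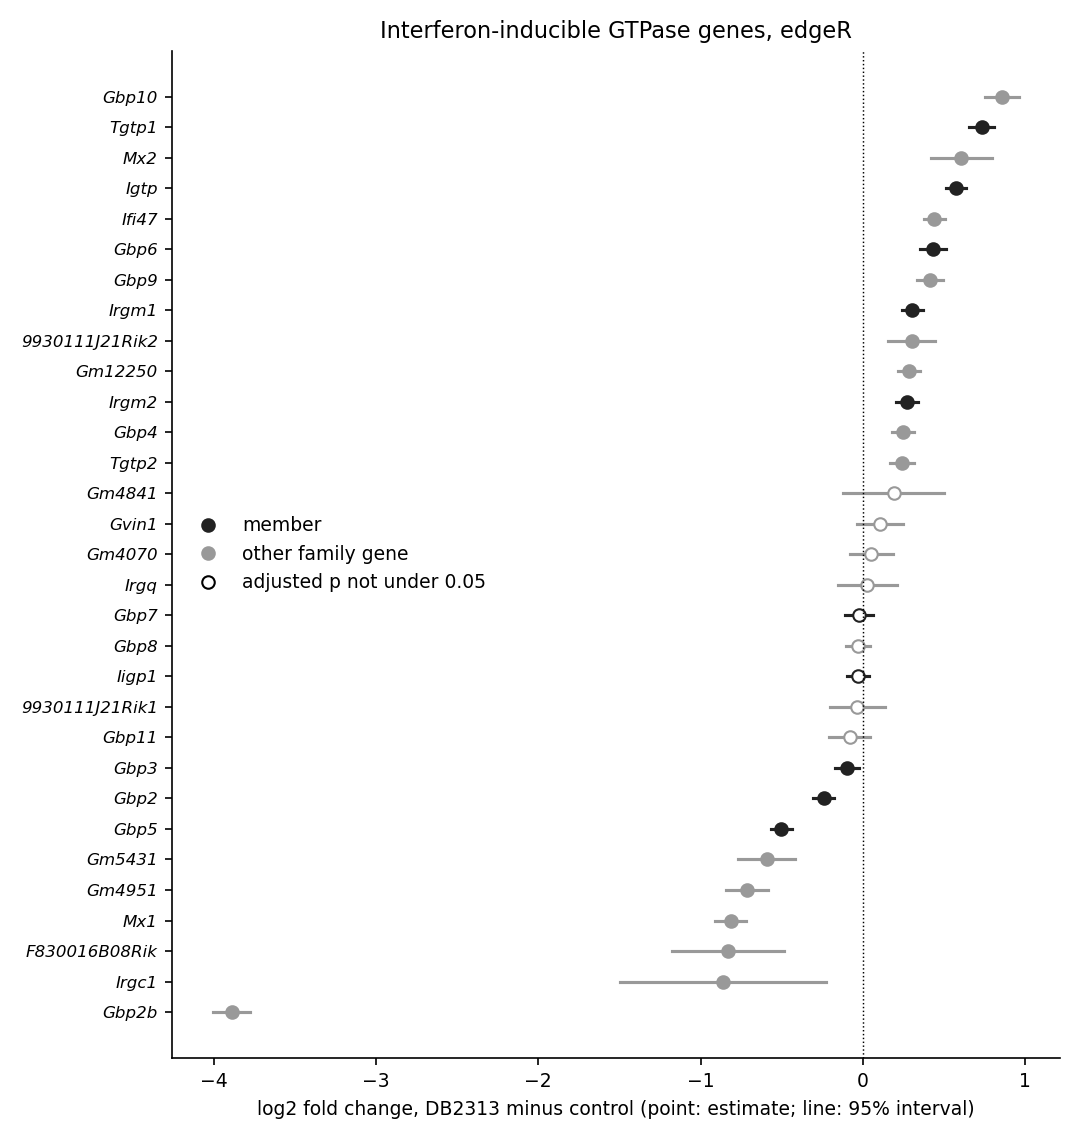
Log2 fold change (DB2313 minus control, edgeR with TMM) of the 10 members (black) and the 21 other family genes (grey), with 95% intervals as lines; open points did not pass an adjusted p of 0.05. Gbp2b stands apart at -3.89, and the members span -0.50 (Gbp5) to 0.73 (Tgtp1). Under T cell marker scaling most points move below 0, and with scaling to the macrophage markers all but Gbp2b move above it.

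The pathway upstream of these GTPases was examined with a list of 14 genes, of which 6 were higher and 5 were lower. All tested genes were 20.8% higher and 24.6% lower. The list median log2 fold change was -0.066, against 0.019 over all tested genes. It was 0.029 with library size scaling and 1.15 with scaling to the macrophage markers. Ifng, the ligand, had 0.410 to 1.496 CPM over the 6 libraries, and its groups overlapped (log2 fold change -0.65, 95% interval from -1.47 to 0.17, adjusted p = 0.19, edgeR). With TMM scaling the receptor chains moved in opposite directions. Ifngr1, which binds the ligand, was at 256, 252 and 257 CPM in control libraries and 351, 353 and 354 CPM in DB2313 libraries (log2 fold change 0.47, adjusted p = 2.35e-11, edgeR), and Ifngr2, the signalling chain, had a log2 fold change of -0.34 (adjusted p = 8.87e-07, edgeR). The receptor kinases did so as well, with a log2 fold change of 0.27 for Jak1 and -0.74 for Jak2. Irf9, which acts at the ISRE, had a log2 fold change of 0.31, and Socs1, the feedback inhibitor, one of 0.17. Irf8, a myeloid and B cell factor that partners with PU.1, was at 335, 328 and 337 CPM in control libraries and 156, 156 and 161 CPM in DB2313 libraries, a log2 fold change of -1.08 (adjusted p = 1.10e-17, edgeR). Irf1, which is needed for induction of many Gbp genes, differed by -0.0049 (95% interval from -0.071 to 0.061, adjusted p = 0.916, edgeR), but was called higher with library size scaling, at 0.089 (adjusted p = 0.0181, edgeR). Scaled to the T cell markers, all 14 genes were called lower, and with scaling to the macrophage markers 13 were called higher, Irf8 and Jak2 included. The median of all tested genes also moved, to -0.58 and 1.24.

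Other targets of interferon were counted by list, and the difference between lists was not tested. Over all tested genes, 20.8% were higher and 24.6% were lower, with a median log2 fold change of 0.019. Of 23 further IFN-γ targets, 14 were lower and 1 (Nlrc5, log2 fold change 0.11) was higher, with a median log2 fold change of -0.23 (0.99 with scaling to the macrophage markers). The 1 higher call was lost without DB2313 replicate 1. Library size and upper quartile scaling each gave 12 lower and 7 higher, T cell marker scaling 23 lower and 0 higher, and macrophage marker scaling 3 lower and 18 higher. The median of all tested genes was 0.11, 0.083, -0.58 and 1.24 under these scalings, in the same order. The largest falls were in Nos2, inducible nitric oxide synthase, with a log2 fold change of -3.41, and Ciita, the master regulator of MHC class II, with one of -2.45. Nos2 was low, at 7.77 ± 0.714 CPM in control and 0.737 ± 0.479 CPM in DB2313 libraries (SD, n = 3 each). Its 95% interval ran from -3.97 to -2.85, and it was not tested when at least 10 counts in every library were required. Of 20 targets of type I interferon, all 20 were higher, with a median log2 fold change of 0.40 (-0.195 with scaling to the T cell markers), led by Ifit1 (log2 fold change 0.95) and Ifit3 (log2 fold change 0.88). This unanimity depends on the list, which left out Mx1 and Mx2, counted above with the GTPases. Mx1 was lower (log2 fold change -0.81) and Mx2 was higher (log2 fold change 0.61). Under T cell marker scaling 3 of the 20 were higher and 12 were lower. ISRE letters were present in 8 of 9 promoters of the GTPase genes, in 4 of 8 (50%) of the other GTPase family genes, in 9 of 17 promoters (52.9%) of the type I targets and in 3 of 18 (16.7%) of the further IFN-γ targets.

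Genes that act with Gbp and Irg proteins were counted in the same way. Of all tested genes, 20.8% were higher and 24.6% were lower, with a median log2 fold change of 0.019. Of 14 genes of the ubiquitin-like conjugation machinery that directs these GTPases to vacuoles, 7 were lower and 2 were higher, with a median log2 fold change of -0.13 (1.085 with scaling to the macrophage markers). With library size scaling 4 were lower and 3 higher, under T cell marker scaling all 14 were lower, and under macrophage marker scaling all 14 were higher. The median of all tested genes was 0.11, -0.58 and 1.24 under these scalings, in the same order. Atg7, the activating enzyme of the pathway, had a log2 fold change of -0.63, Sqstm1, an autophagy receptor, one of -0.44, Trim21, a ubiquitin ligase, one of 0.28 and Gabarapl2, an Atg8 protein, one of 0.18. Of 5 genes for prenylation, which anchors the tails of some Gbp proteins in membranes, 2 were higher (Rce1 with a log2 fold change of 0.37 and Fntb with 0.26) and none was lower, with a median of 0.11 (-0.48 with scaling to the T cell markers). Fntb lost its call with DESeq2 (adjusted p = 0.0590), and 1 gene was called higher without control replicate 2. Library size, upper quartile and macrophage marker scaling gave 4, 4 and 5 higher genes, and T cell marker scaling gave 5 lower. The Gbp5 and Irgm2 proteins are linked to inflammasome activity, not to the transcripts of each listed gene. Of 9 inflammasome genes, all 9 were lower, with a median log2 fold change of -0.37 (0.85 with scaling to the macrophage markers). The largest falls were in Il1b (log2 fold change -2.08) and Nlrp3 (log2 fold change -1.63). A relation to the changes of Gbp5 or Irgm2 was not tested. Scaled to the macrophage markers, 2 were lower and 5 were higher.

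**Figure D5:**
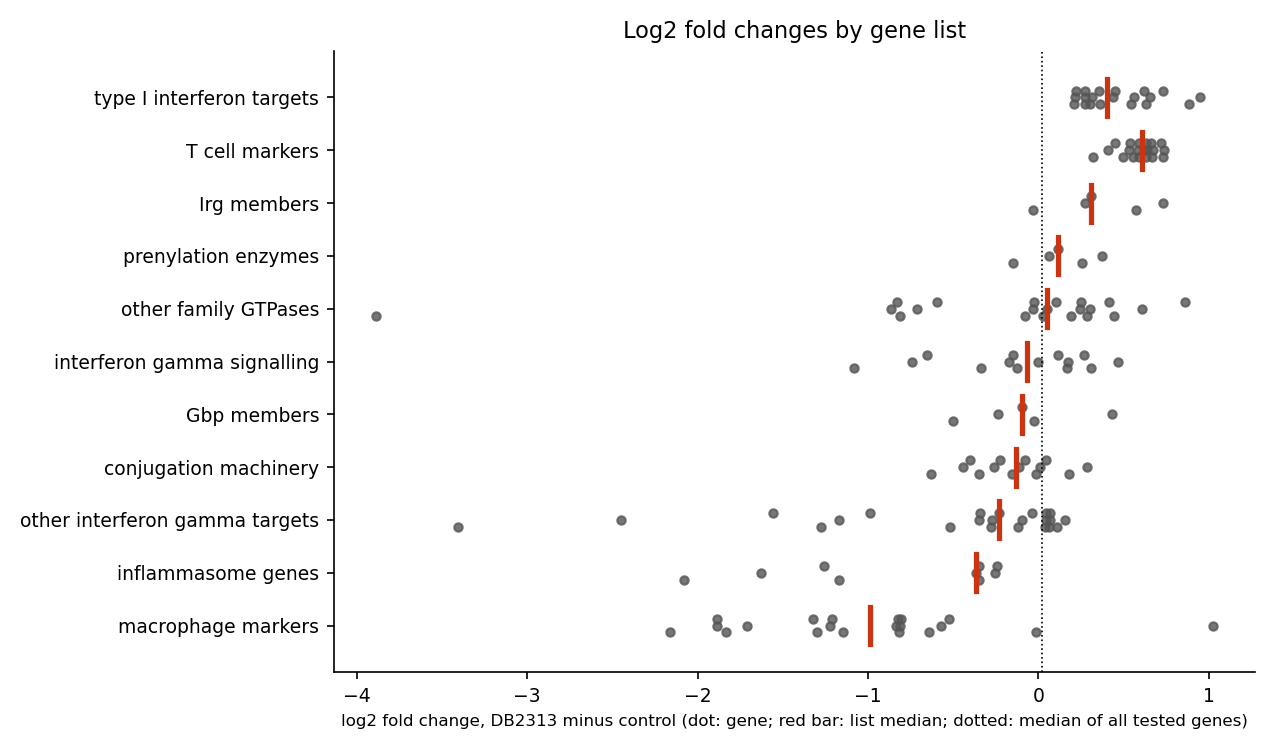
Log2 fold change (DB2313 minus control, edgeR with TMM) of each tested gene by list. Dots are genes, red bars are list medians and the dotted line is the median of all tested genes (0.019). The Irg members (median 0.31) lie on the side of the type I interferon targets (0.40) and the T cell markers (0.61), and the Gbp members (median -0.096) straddle 0. Under T cell marker scaling, the medians of the type I targets and of the 10 GTPase genes fall to -0.195 and -0.47, and with scaling to the macrophage markers the median of the 10 GTPase genes is 1.34.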

How the data were processed

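RNA-seq was performed on 3 control and 3 DB2313 libraries. The authors deposited 1 table of raw counts per gene, with gene coordinates, length and biotype. The submitters' processing notes list CASAVA 1.8, HISAT2 2.0.5 and featureCounts 1.5.0-p3, whereas the paper's methods name LifeScope, so the tool behind the counts is unresolved. Genome build, annotation, strandedness and the treatment of multi-mapped reads are not given in the sources used here. Of 54409 genes shared with GENCODE M21, 98.3% had identical GRCm38 coordinates. Columns were matched to samples by the description label.

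The quasi-likelihood test of edgeR 4.0.16 was used in R 4.3.3, after filterByExpr and TMM scaling, with Benjamini-Hochberg adjustment over 14883 tested genes and no covariate. Each standard error is the fitted change divided by the root of its F statistic. Scripts were tested on simulated data. The chi-square per gene between libraries was 2.46 to 3.96 within groups and 51.3 to 56.0 between groups, and all 6 libraries were kept as separate. Depth ranged from 16611975 to 18596217 counts. Alternatives were DESeq2 1.42.0, 4 other scalings, no filter, at least 10 counts in every library, a replicate block, leaving out each library, a fold threshold, and summing near copies.

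The members and gene lists were chosen with earlier results of these data known. Genes named are the members, the listed family genes, up to 4 genes with the largest changes per other list, 9 genes of the IFN-γ pathway (1 of which is not reported here), and the 5 genes most alike the mean member profile.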

Additional observations from a re-analysis of the deposited data

How the results depend on the processing

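Scaling decided most directions. With scaling to the T cell markers, 8 of the 10 genes were lower and 1 higher, and 19 and 1 of the 21 other GTPases. With scaling to the macrophage markers, 0 were lower and 10 higher, and 1 and 19 of the others. The T cell and macrophage marker scalings moved the median of all tested genes to -0.58 and 1.24. With a fold threshold, 0 members were called either way, and 1 lower and 0 higher of the others. With scaling to the T cell markers, signs turned for Gbp6 (-0.17), Irgm1 (-0.29), Irgm2 (-0.32) and Igtp (-0.024), and for the medians of the members (-0.47), other GTPases (-0.54), type I targets (-0.195) and prenylation genes (-0.48). With scaling to the macrophage markers, they turned for Gbp2 (0.98), Gbp3 (1.12), Gbp5 (0.72), Gbp7 (1.19) and Iigp1 (1.19), and for the medians of IFN-γ signalling (1.15), IFN-γ targets (0.99), conjugation (1.085) and inflammasome genes (0.85). The uncalled Gbp7 and Iigp1 turned with library size (0.070 and 0.065) and upper quartile scaling (0.039 and 0.034), as did the signalling median with library size (0.029). Leaving out 1 library gave Gbp7 a range from -0.081 to 0.0052, and the 7 called members other than Gbp3 passed in all 6 such fits. Deviations of same-numbered libraries correlated at -0.0039 to 0.019, and those of the other pairs at -0.032 to 0.0195. With 3 libraries per group, these values cannot settle whether the libraries were paired. With a replicate block Gbp3, at -0.096, lost its call (adjusted p = 0.0758, edgeR), and no other member changed its call. Of 153 member comparisons, 118 kept direction and call, 17 lost the call, 2 gained one and 16 turned. The causes were not tested beyond what each setting changes by construction. Groups of 3 libraries limit precision, and shared sequence limits Tgtp1, Gbp6 and, among the other genes, Gbp10, Tgtp2, both 9930111J21Rik genes, Gvin1 and Gm4070.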

Other observations

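The genes whose levels over the 6 libraries were most like the mean profile of the 10 GTPases were sought among 9324 protein-coding genes that averaged 10 CPM or more, with the root mean square difference of centred log2 CPM as the measure. They were Adar at 0.0044, Il2rg at 0.010, Klf3 at 0.011, Pecam1 at 0.013 and Scap at 0.013. The 10 GTPases themselves differed from their mean profile by more, from 0.067 for Irgm2 to 0.32 for Gbp5. Neutrophil markers were present as well, at 0.188% to 0.189% of all counts in control libraries and 0.0708% to 0.0725% in DB2313 libraries, with 8 of 9 lower and 1 higher. Their log2 fold changes ran from -3.92 to 1.39. All tested genes were 24.6% lower and 20.8% higher. B cell markers took 0.00475% to 0.00509% and 0.00732% to 0.00760% of all counts, with 4 of 7 tested markers higher.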
